A study of Homo sapiens with 41 samples.

Results

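Count data of 4 libraries, LX-2 DMSO and HMLE Twist_OE with 2 libraries each, were compared gene by gene to ask which mesenchymal genes HMLE cells overexpressing Twist carried at the level of a stellate line and which they did not. The libraries were chosen by their labels alone, from 32 RNA-seq libraries of a series of 41 samples, and genes on chromosomes X and Y were left out. LX-2 is an immortalised line of human hepatic stellate cells, the cells that deposit collagen in liver fibrosis, and it carried a control hairpin (shCtrl) and received DMSO as vehicle. HMLE is a line of human mammary epithelial cells immortalised with telomerase and SV40 proteins; the Twist_OE cells carried the same control hairpin and overexpressed Twist. HMLE DMSO, also with shCtrl and with 2 libraries, served as the starting point of HMLE. The 3 matching groups with a hairpin against the stress factor ATF4 (shATF4), LX-2 DMSO, HMLE Twist_OE and HMLE DMSO with 2 libraries each, gave the same comparison in other libraries. The labels give neither the Twist gene, its promoter, a clone, an empty vector control nor a vehicle for Twist_OE, so the reference for its change is HMLE in DMSO, and no label says whether libraries of a group came from separate cultures. P-values therefore measure the spread between these libraries, which may be technical.

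Twist proteins are basic helix-loop-helix factors that bind E-boxes, short DNA elements of the form CANNTG. They act in mesoderm and neural crest, and in epithelial cells they can set off the epithelial-mesenchymal transition (EMT), in which E-cadherin and keratins are lost and N-cadherin, vimentin and matrix are gained. Activated stellate cells carry many of the same cytoskeletal and matrix genes, but they derive from the liver's own mesenchyme.

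Libraries held 18729266 and 18495277 counts in LX-2 DMSO, 20319748 and 21842507 in HMLE Twist_OE, and 22662452 and 20456433 in HMLE DMSO. The correlation of log2 CPM (counts scaled to library size) between the libraries of a group was 0.9915 in LX-2, 0.9928 in HMLE Twist_OE and 0.9939 in HMLE DMSO. Levels below are CPM after TMM scaling, differences are log2 values with their SE (n = 2 libraries per group) from edgeR's quasi-likelihood fit, and adjusted p-values are over all genes tested. CPM is not scaled to gene length, so levels are compared between groups and never between genes. A gene was called higher or lower at an adjusted p below 0.05 and at least a 2-fold difference. It was called within 2-fold where the 95% interval of the LX-2 minus HMLE Twist_OE difference lay inside 2-fold on both sides, and unresolved otherwise. Both differences use the same HMLE Twist_OE libraries, so they are not independent. Log2 values in brackets after a gene are LX-2 minus HMLE Twist_OE, and a rise or fall is HMLE Twist_OE minus HMLE DMSO.

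TWIST1, the gene that checks the label, stood at 15.8 and 16.9 CPM in LX-2, 126 and 140.2 in HMLE Twist_OE and 17.4 and 16.8 in HMLE DMSO. The HMLE Twist_OE libraries were above all others, and the LX-2 minus HMLE DMSO difference was -0.07 ± 0.10. The LX-2 label was checked against 22 stellate identity genes, of which 14 were tested. Of the 22, 10 had a mean of at least 1 CPM in LX-2, against 7 in HMLE Twist_OE and 7 in HMLE DMSO. Their summed level was lower in LX-2, at 338 and 323 CPM. It was 441 and 414 CPM in HMLE Twist_OE and 431 and 411 in HMLE DMSO. GATA4 (64.6 and 69.1 CPM in LX-2) and FOXF1 (34.1 and 32.1) were present. The vitamin A enzyme LRAT had 0.0492 and 0 CPM in LX-2, and GFAP, TCF21 and RELN all lay below 2 CPM there. Of 7 hepatocyte markers 5 had no counts in LX-2, ALB among them, and their summed level there was 3.93 and 5.52 CPM, nearly all SERPINA1. Of 6 leukocyte markers, CD14 alone passed 1 CPM in LX-2, where the summed level was 12.7 and 17.2 CPM, with LYZ and CD3E at 0. Of 6 endothelial markers, TEK made up nearly all of the 14.7 and 14.2 CPM in LX-2, and CLEC14A was at 0.

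Among 183 mesenchymal genes in 9 lists, 164 had enough counts to be tested. The lists were chosen with earlier results of these data known, so their shares beside all genes may partly reflect that choice. LX-2 was higher than HMLE Twist_OE for 61 of them (37.2%, against 19.0% of all 15093 genes counted) and lower for 48 (29.3%, against 18.8%). The lines were within 2-fold for 44 (26.8%, against 46.2%), and 11 were unresolved (6.71%, against 16% of all genes). The count of 44 was 27 with all 31 distinct libraries in the fit and 21 with a limit of 1.5-fold. The median difference of the 164 genes was 0.05 on the log2 scale, against -0.07 over all genes, with high and low members on both sides. Relative to HMLE DMSO, HMLE Twist_OE was higher for 110 of the 164 (67.1%, against 14.3% of all genes) and lower for 6 (3.66%, against 8.1%), with a median log2 difference of 2.06 against 0 over all genes. LX-2 was higher than HMLE DMSO for 114 of the 164 (69.5%, against 25.5% of all genes) and lower for 19 (11.6%, against 21.8%), with a median of 2.74.

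Joining both comparisons, 68 of the 164 genes were raised in HMLE Twist_OE and stood there within 2-fold of LX-2 or above it (41.5%, against 7.53% of all genes). Of these, 33 were within 2-fold and 35 above LX-2. The count did not require HMLE DMSO to start below LX-2. THBS1, SNAI2, NID2, FAP, S100A4 and GATA6 were already called higher in HMLE DMSO than in LX-2, so their rise led away from the stellate level. FN1, LOX and COL8A1 started below LX-2 and rose past it. For 60 genes LX-2 stood above both HMLE groups (36.6%, against 16.4%). Of the 61 genes higher in LX-2, 34 were raised in HMLE Twist_OE but stayed below, at a median of 4.99-fold under LX-2, and 27 were not raised. Among all genes, 2864 were higher in LX-2, of which 646 were raised and 2218 were not. In 28 of the 61 the HMLE Twist_OE mean was below 1 CPM, and 5 had no counts there at all. Each of the 9 lists held genes higher and genes lower in LX-2, as the shares by list show. The shares over all genes, 19.0% higher in LX-2, 18.8% lower, 46.2% within 2-fold and 14.3% raised in HMLE Twist_OE, are the background for every list below.

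**Figure D1:**
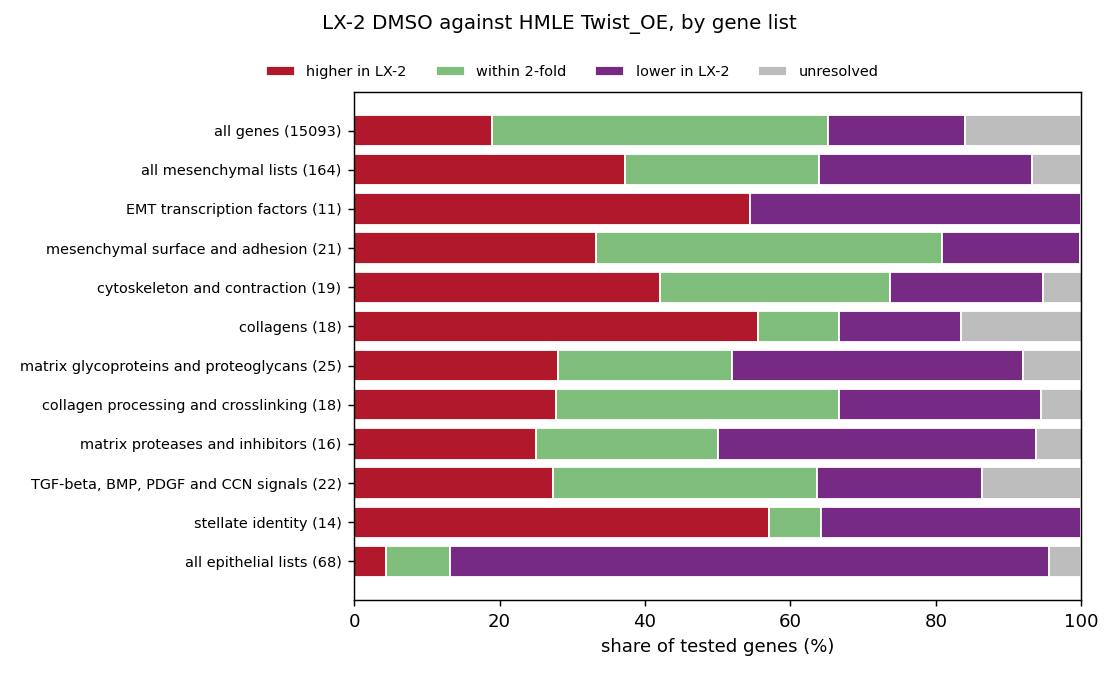
Share of tested genes (%, horizontal axis) in each class of LX-2 DMSO against HMLE Twist_OE, by gene list, with the number of genes tested in brackets. Among the 9 mesenchymal lists, stellate identity (57.1%), collagens (55.6%) and EMT transcription factors (54.5%) had the highest shares higher in LX-2. Surface and adhesion genes had the highest share within 2-fold (47.6%), near that of all genes (46.2%).

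**Figure D2:**
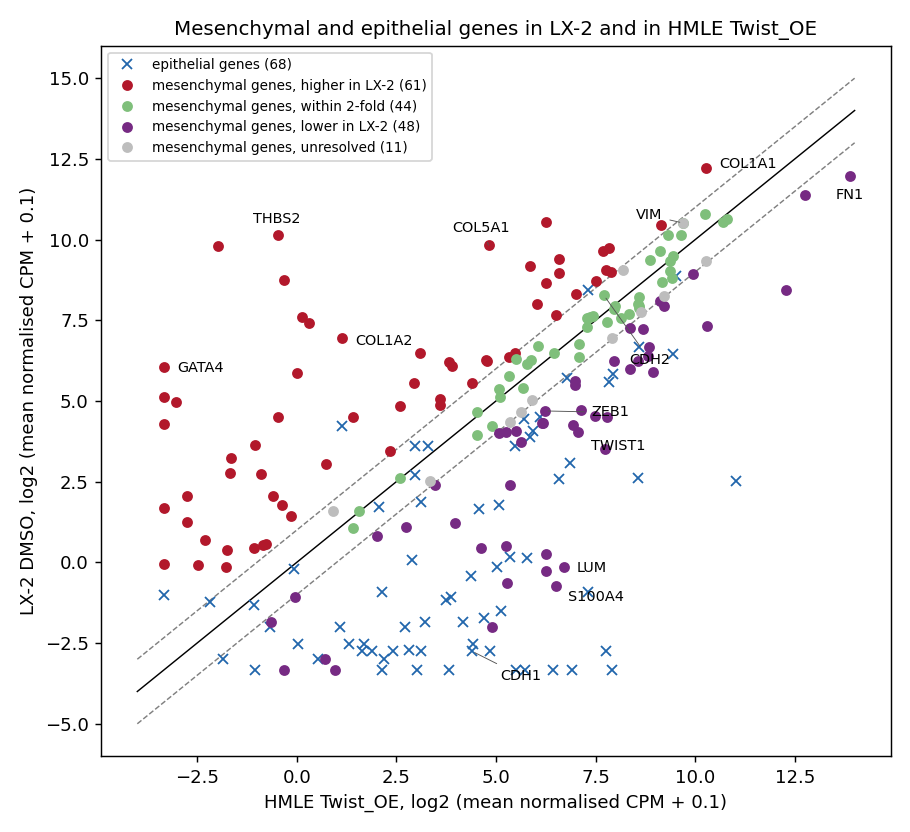
Mean normalised CPM plus 0.1 on a log2 scale in LX-2 DMSO (vertical) and HMLE Twist_OE (horizontal), 1 point per tested mesenchymal or epithelial gene. The solid line marks equal levels and the dashed lines a 2-fold difference; circles are mesenchymal genes coloured by class (61 called higher in LX-2, 48 called lower, 44 within 2-fold by their interval, 11 unresolved) and crosses are epithelial genes.

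The outcomes are shown by 4 genes, and the 250 bases before their annotated starts are printed because Twist binds E-boxes. CDH2 encodes N-cadherin, whose gain is the classical sign of EMT, and SPARC encodes a collagen-binding matrix protein; both were raised and within 2-fold of LX-2. THBS2 encodes the matrix glycoprotein thrombospondin-2 and CXCL12 a chemokine of stromal cells; both were high in LX-2 and nearly or wholly without counts in HMLE. The sequences are from RefSeq (GRCh38.p14), in lower case, 5′ to 3′ on the strand of the gene, with any CANNTG in capitals. They lie at chr18:28177131-28177380 for CDH2, chr5:151686916-151687165 for SPARC, chr6:169253847-169254096 for THBS2 and chr10:44385098-44385347 for CXCL12, all on the minus strand.
CDH2: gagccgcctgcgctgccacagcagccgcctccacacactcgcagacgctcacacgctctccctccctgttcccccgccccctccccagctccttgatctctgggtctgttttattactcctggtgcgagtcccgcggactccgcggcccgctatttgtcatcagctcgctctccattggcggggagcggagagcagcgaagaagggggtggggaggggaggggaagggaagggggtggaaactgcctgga
SPARC: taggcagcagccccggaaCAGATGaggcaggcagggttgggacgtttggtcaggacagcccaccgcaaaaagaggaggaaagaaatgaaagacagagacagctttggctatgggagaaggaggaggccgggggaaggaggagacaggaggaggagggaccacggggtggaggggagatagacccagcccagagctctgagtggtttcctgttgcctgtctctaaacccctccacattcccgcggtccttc
THBS2: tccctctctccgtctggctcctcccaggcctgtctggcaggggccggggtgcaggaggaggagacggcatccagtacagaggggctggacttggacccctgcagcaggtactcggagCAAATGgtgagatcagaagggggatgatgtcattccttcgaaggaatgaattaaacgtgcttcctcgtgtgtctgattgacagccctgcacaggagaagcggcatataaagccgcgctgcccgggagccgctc
CXCL12: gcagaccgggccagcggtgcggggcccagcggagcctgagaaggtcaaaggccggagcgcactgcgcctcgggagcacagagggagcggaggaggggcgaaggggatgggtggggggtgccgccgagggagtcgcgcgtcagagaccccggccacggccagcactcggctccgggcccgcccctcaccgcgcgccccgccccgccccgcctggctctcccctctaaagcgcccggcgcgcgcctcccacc
SPARC held 1 E-box in this window, CAGATG, and THBS2 held 1, CAAATG, whereas CDH2 (the first of 2 annotated starts) and CXCL12 held none. Over the 300 bases from 250 before to 50 after each start, CANNTG (a palindrome in its fixed letters, so both strands are covered) occurred in 56.9% of 130 promoters of the raised mesenchymal genes, in 69.8% of 63 promoters of those not raised, and in 68.6% of 33725 promoters outside X and Y. The forms CATCTG or CAGATG, each the reverse complement of the other and both part of CANNTG, occurred in 14.6%, 14.3% and 14.7% in the same order. Of the 164 tested genes, 120 had a promoter in the table.

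CDH2 had 327 and 292 CPM in LX-2, 217 and 201 in HMLE Twist_OE and 4.34 and 4.49 in HMLE DMSO. The LX-2 minus HMLE Twist_OE difference was 0.57 ± 0.07 (adjusted p = 2.0e-05), small beside the rise of 5.56 ± 0.11 over HMLE DMSO. For SPARC the levels were 1414 and 1485 CPM in LX-2, 829 and 817 in HMLE Twist_OE and 214 and 216 in HMLE DMSO, a difference of 0.82 ± 0.06 and a rise of 1.94 ± 0.06. THBS2 had 1152 and 1086 CPM in LX-2, 0.781 and 0.469 in HMLE Twist_OE and 0.274 and 0.303 in HMLE DMSO. Its LX-2 minus HMLE Twist_OE difference of 10.81 ± 0.13 (adjusted p = 1.3e-13) stood beside a called rise of 1.09 ± 0.39 in HMLE Twist_OE that left it under 1 CPM, and that was not kept in 10 of 14 alternatives, with 0.69 without HMLE Twist_OE replicate 1. That rise was not kept without HMLE Twist_OE replicate 1, where it was 0.69 (adjusted p = 0.37). CXCL12 had 790.2 and 803 CPM in LX-2 and not a count in the 4 HMLE libraries, so LX-2 was at least 12006-fold higher (floor of 3 counts over the HMLE Twist_OE group, counting error only).

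**Figure D3:**
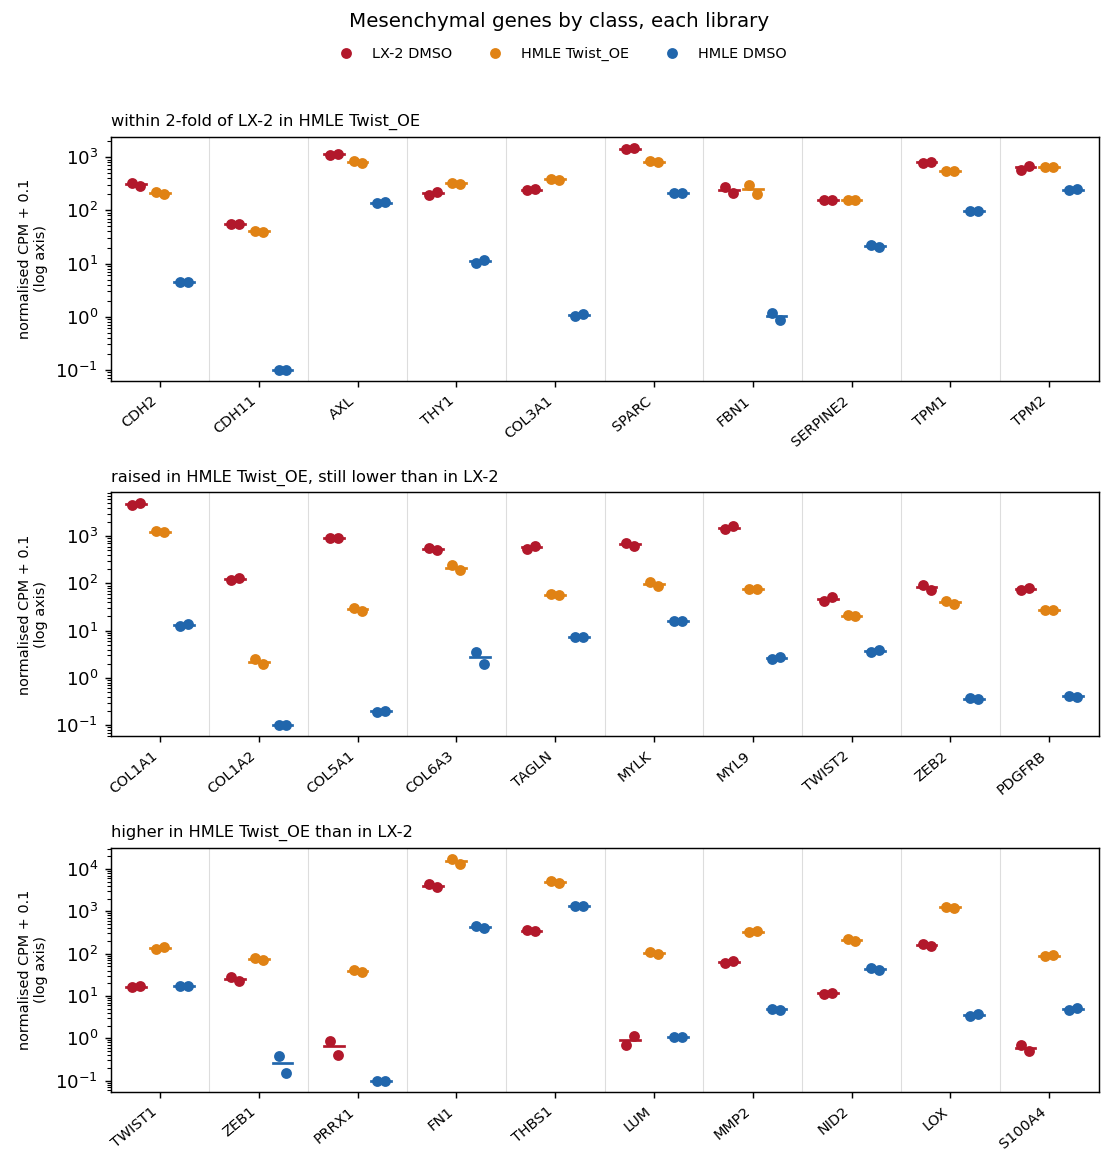
Normalised CPM plus 0.1 (log axis) of 30 mesenchymal genes in each library, with a bar at the mean of the 2 libraries, for LX-2 DMSO, HMLE Twist_OE and HMLE DMSO from left to right. In the upper panel HMLE Twist_OE is within 2-fold of LX-2. It lies between LX-2 and HMLE DMSO in the middle panel and above LX-2 in the lower panel.

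No EMT transcription factor was within 2-fold: of 11 tested, 6 were higher and 5 lower in LX-2, and 8 were raised in HMLE Twist_OE. The zinc finger repressor ZEB1 had 28.6 and 22.9 CPM in LX-2, 78.4 and 70.2 in HMLE Twist_OE and 0.274 and 0.0504 in HMLE DMSO, a difference of -1.53 ± 0.12 (adjusted p = 2.5e-07). Its partner ZEB2 went the other way, with 91.1 and 73.3 CPM in LX-2, 42.4 and 37.5 in HMLE Twist_OE and 0.274 and 0.252 in HMLE DMSO (1.04 ± 0.11, adjusted p = 2.3e-06). The ZEB2 call rested on values near 2-fold and was not kept without LX-2 replicate 1, where the difference was 0.88. Both genes encode repressors of E-cadherin, both were nearly without counts in HMLE DMSO, and their libraries did not overlap between groups.

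Twist genes and Snail genes were likewise on opposite sides. TWIST2 had 42.8 and 50.9 CPM in LX-2, 21 and 20.7 in HMLE Twist_OE and 3.38 and 3.83 in HMLE DMSO, so LX-2 was higher by 1.17 ± 0.11 where TWIST1 was lower (-3.02 ± 0.09). TWIST1 counts may include transcripts of an introduced gene, which the files do not separate. SNAI2, which encodes Slug, had 24.2 and 20.9 CPM in LX-2, 223 and 218 in HMLE Twist_OE and 51.5 and 56.7 in HMLE DMSO, whereas SNAI1 had 3.54 and 4.6 CPM in LX-2, 0.0521 and 0.0469 in HMLE Twist_OE and no counts in HMLE DMSO. PRRX1, a homeobox factor of limb and craniofacial mesenchyme, had 0.787 and 0.306 CPM in LX-2 and 40.3 and 37.1 in HMLE Twist_OE with no counts in HMLE DMSO, at least 534-fold higher in HMLE Twist_OE than HMLE DMSO. FOXC2 was lower in LX-2 too (-2.4 ± 0.09), while the E protein TCF4, a dimer partner of Twist, was higher there (2.39 ± 0.13) with 82.2 and 64.9 CPM in LX-2, 14 and 14.1 in HMLE Twist_OE and 5.8 and 7.51 in HMLE DMSO. GSC, a homeobox gene, had 2.9 and 3.27 CPM in LX-2 and no counts in HMLE.

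Surface and adhesion genes had the largest share within 2-fold of the 9 lists, 47.6%, which was near the 46.2% of all genes. Of 21 tested, 18 were raised in HMLE Twist_OE, 10 were within 2-fold, 7 were higher and 4 lower in LX-2. CDH11, the cadherin of mesenchymal cells, had 55 and 54.1 CPM in LX-2, 41.2 and 39.2 in HMLE Twist_OE and no counts in HMLE DMSO, a difference between lines of 0.44 ± 0.09 (adjusted p = 7.2e-04). HMLE Twist_OE was at least 555-fold above HMLE DMSO for it. The receptor tyrosine kinase AXL had 1103 and 1163 CPM in LX-2, 830.0 and 777 in HMLE Twist_OE and 137 and 141 in HMLE DMSO (0.5 ± 0.07). THY1 (CD90), NT5E (CD73), MCAM and the fibronectin receptor chains ITGA5 and ITGB1 were also raised and within 2-fold; MCAM differed by 0.04 ± 0.08 and ITGB1 by -0.17 ± 0.07.

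Receptors for matrix and growth factors divided. PDGFRB, the PDGF receptor of stellate cells and pericytes, had 72.2 and 78.3 CPM in LX-2, 27.3 and 27.4 in HMLE Twist_OE and 0.32 and 0.303 in HMLE DMSO (1.46 ± 0.09, adjusted p = 1.2e-08). PDGFRA showed the reverse order, with 1.23 and 1.28 CPM in LX-2, 27.1 and 22.4 in HMLE Twist_OE and no counts in HMLE DMSO (-4.29 ± 0.19, adjusted p = 3.1e-09). Neither receptor's libraries overlapped between the lines. The proteoglycan CSPG4 (NG2), the TGF-beta co-receptor ENG, the collagen receptors DDR2 and ITGA11 and the integrin chain ITGB3 were higher in LX-2, by 3.13 ± 0.17 for ITGA11 and 1.52 ± 0.13 for DDR2. FAP, the fibroblast activation protease, had 1.03 and 1.58 CPM in LX-2, 38.1 and 38.1 in HMLE Twist_OE and 9.49 and 10.3 in HMLE DMSO, and the integrin chain ITGAV was lower in LX-2 too (-2.18 ± 0.11).

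Of 19 cytoskeletal and contractile genes tested, 12 were raised in HMLE Twist_OE; 8 were higher in LX-2, 6 within 2-fold, 4 lower and 1 unresolved. The unresolved gene was VIM, the intermediate filament vimentin, with 1413 and 1510.1 CPM in LX-2, 849 and 815 in HMLE Twist_OE and 3.56 and 5.3 in HMLE DMSO. Its difference of 0.81 ± 0.09 had a 95% interval from 0.62 to 1.001, so its upper end lay at 2-fold, while the rise over HMLE DMSO was 7.56 ± 0.13. MYL9 and TAGLN were raised and stayed below LX-2. MYL9, a myosin light chain, had 1400.1 and 1600.0 CPM in LX-2, 76.7 and 74.6 in HMLE Twist_OE and 2.46 and 2.72 in HMLE DMSO (4.31 ± 0.08, adjusted p = 9.0e-13). The actin-binding protein TAGLN had 545 and 616 CPM in LX-2, 58.9 and 57.5 in HMLE Twist_OE and 7.26 and 7.11 in HMLE DMSO (3.32 ± 0.08).

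ACTA2, the smooth muscle actin that marks activated stellate cells, was modest in all groups, with 29.1 and 29.7 CPM in LX-2, 12.2 and 11.6 in HMLE Twist_OE and 4.2 and 5.75 in HMLE DMSO (1.31 ± 0.12, adjusted p = 1.0e-06). The enteric actin ACTG2 (5.99 ± 0.16), the kinase MYLK (2.81 ± 0.10) and calponin CNN1 were higher in LX-2 as well, CNN1 with 28.7 and 33.8 CPM in LX-2 and 0 and 0.0469 in HMLE Twist_OE. Tropomyosins behaved otherwise: TPM1, TPM2 and TPM4 were within 2-fold, and TPM2 differed by -0.04 ± 0.08 with 585 and 696 CPM in LX-2, 662 and 658 in HMLE Twist_OE and 242 and 248 in HMLE DMSO. Caldesmon CALD1 was within 2-fold too (0.51 ± 0.08). The focal adhesion protein vinculin (VCL) was called lower in LX-2 at the limit (-1.02 ± 0.07). That call was not kept in 8 of 15 alternatives, with -0.97 without HMLE Twist_OE replicate 1. The actin-binding palladin PALLD was lower in LX-2 as well (-1.71 ± 0.07), and TAGLN2 was level (0.07 ± 0.07). S100A4, a calcium-binding protein used as a fibroblast marker, had 0.59 and 0.409 CPM in LX-2, 87.7 and 92.9 in HMLE Twist_OE and 4.56 and 5.19 in HMLE DMSO. The intermediate filament nestin (NES) was likewise lower in LX-2 (-6.11 ± 0.16).

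Collagens were raised in HMLE Twist_OE for 13 of 18 tested, yet 10 were higher in LX-2, 2 within 2-fold, 3 lower and 3 unresolved. COL1A1, the main chain of type I collagen, had 4636 and 4915 CPM in LX-2, 1279 and 1203 in HMLE Twist_OE and 12.2 and 13.6 in HMLE DMSO. The rise in HMLE Twist_OE was 6.59 ± 0.09, and LX-2 still lay above by 1.94 ± 0.07 (adjusted p = 1.1e-10). Its partner chain COL1A2 lay further below, with 119 and 128 CPM in LX-2, 2.4 and 1.83 in HMLE Twist_OE and no counts in HMLE DMSO (5.88 ± 0.13, adjusted p = 9.7e-12). The level in HMLE Twist_OE was 58.7-fold below LX-2 for COL1A2 and 3.85-fold for COL1A1, whose products form a common trimer.

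Type V collagen split in the same manner. COL5A1 had 910.2 and 910.1 CPM in LX-2, 29.8 and 26.3 in HMLE Twist_OE and 0.0913 and 0.101 in HMLE DMSO (5.02 ± 0.08), and COL5A2 had 546 and 524 CPM in LX-2, 302 and 279 in HMLE Twist_OE and 13.7 and 14.2 in HMLE DMSO (0.88 ± 0.07, unresolved). COL3A1, which forms fibrils with type I collagen, was raised and within 2-fold of LX-2 (-0.63 ± 0.07). It had 240.2 and 252 CPM in LX-2, 392 and 371 in HMLE Twist_OE and 0.913 and 1.01 in HMLE DMSO. The type VI chains COL6A1, COL6A2 and COL6A3 were nearly absent from HMLE DMSO, were raised and stayed under LX-2, by 1.1 ± 0.07, 2.4 ± 0.09 and 1.29 ± 0.13. Among basement membrane chains, COL4A2 was within 2-fold (0.54 ± 0.07) and COL4A1 was called lower in LX-2 at the limit (-1.0 ± 0.07), a call not kept in 10 of 15 alternatives, with -0.93 without HMLE Twist_OE replicate 1. COL8A1, a short-chain collagen of vessel walls, was lower in LX-2 (-1.46 ± 0.07), with 148 and 153 CPM in LX-2, 419 and 409 in HMLE Twist_OE and 0.959 and 0.958 in HMLE DMSO.

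Matrix glycoproteins and proteoglycans lay on both sides: of 25 tested, 19 were raised in HMLE Twist_OE, 7 were higher in LX-2, 6 within 2-fold, 10 lower and 2 unresolved. FN1, fibronectin, had 4407 and 3702 CPM in LX-2, 17397 and 13058 in HMLE Twist_OE and 455 and 403 in HMLE DMSO (-1.91 ± 0.12, adjusted p = 2.7e-08). THBS1, which can activate latent TGF-beta, had 359.6 and 335 CPM in LX-2, 5181 and 4773 in HMLE Twist_OE and 1356 and 1350.0 in HMLE DMSO (-3.84 ± 0.07, adjusted p = 7.8e-13). THBS1 and THBS2 therefore lay on opposite sides, each with no overlap between the libraries of the lines.

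Lumican (LUM) and decorin (DCN), small proteoglycans of connective tissue, were higher in HMLE Twist_OE than in LX-2. LUM had 0.59 and 1.02 CPM in LX-2, 108 and 99.9 in HMLE Twist_OE and 1 and 0.958 in HMLE DMSO, and DCN 0.934 and 0.511 CPM in LX-2, 75.5 and 76.9 in HMLE Twist_OE and no counts in HMLE DMSO. DCN was at least 1054-fold higher in HMLE Twist_OE than in HMLE DMSO. Relatives again parted. FBLN1 was lower in LX-2 (-3.05 ± 0.07) and FBLN2 higher (9.27 ± 0.20, adjusted p = 1.8e-12), with 403 and 459.8 CPM in LX-2 and 0.885 and 0.516 in HMLE Twist_OE. The nidogens, which link basement membrane proteins, did the same: NID2 was lower in LX-2 (-4.22 ± 0.09) and NID1 higher (7.62 ± 0.12), at 197 and 194 CPM in LX-2 and 1.04 and 0.938 in HMLE Twist_OE.

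EFEMP2, needed for elastic fibres, had 162 and 179 CPM in LX-2 and 0.885 and 1.41 in HMLE Twist_OE. Tenascin-C (TNC) was not called raised (-0.1 ± 0.08), with 516 and 486 CPM in LX-2, 104 and 88.4 in HMLE Twist_OE and 106 and 99.5 in HMLE DMSO. Raised and within 2-fold of LX-2 were fibrillin FBN1 (-0.04 ± 0.16), TGFBI (0.82 ± 0.07) and IGFBP7 (0.24 ± 0.08), next to SPARC. FBN1 had 274 and 214 CPM in LX-2, 303 and 199.7 in HMLE Twist_OE and 1.1 and 0.756 in HMLE DMSO. LX-2 levels of TGFBI and SPARC were still 1.77-fold and 1.76-fold those of HMLE Twist_OE. Periostin (POSTN), a matricellular protein of fibrotic tissue, had 1.87 and 2.2 CPM in LX-2, 5.94 and 7.22 in HMLE Twist_OE and no counts in HMLE DMSO.

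Enzymes that modify collagen were raised in HMLE Twist_OE for 14 of 18, and 7 were within 2-fold, 5 higher and 5 lower in LX-2, with 1 unresolved. Within 2-fold were the collagen chaperone SERPINH1 (-0.47 ± 0.07), FKBP10 (-0.36 ± 0.07) and the prolyl hydroxylase chain P4HA2 (0.19 ± 0.07), whereas P4HA1 was lower in LX-2 (-1.5 ± 0.08). LOX, which crosslinks collagen, had 166 and 155 CPM in LX-2, 1277 and 1215 in HMLE Twist_OE and 3.24 and 3.58 in HMLE DMSO (-2.95 ± 0.07, adjusted p = 3.9e-12). Its relative LOXL2 lay on the other side, with 1348 and 1478 CPM in LX-2, 579 and 541 in HMLE Twist_OE and 121 and 122 in HMLE DMSO (1.33 ± 0.07). LOXL1 was level at 0.01 ± 0.10. PLOD1, a lysyl hydroxylase, was lower in LX-2 (-1.27 ± 0.08), and PCOLCE, which enhances procollagen cleavage, was higher (2.63 ± 0.13). The procollagen N-proteinases split too: ADAMTS2 had 35.1 and 35 CPM in LX-2 and no counts in HMLE, at least 529-fold higher in LX-2 than HMLE Twist_OE, and ADAMTS14 had 1.97 and 2.45 CPM in LX-2, 14.6 and 16.6 in HMLE Twist_OE and 0.867 and 1.01 in HMLE DMSO.

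Of 16 proteases and inhibitors tested, 8 were raised in HMLE Twist_OE and 1 lowered; 7 were lower in LX-2, 4 higher, 4 within 2-fold and 1 unresolved. The gelatinase MMP2 had 59.7 and 67.3 CPM in LX-2, 327 and 334 in HMLE Twist_OE and 4.84 and 4.64 in HMLE DMSO (-2.38 ± 0.08, adjusted p = 4.8e-11). Its inhibitor TIMP2, which also takes part in activating it, stood the other way at 846 and 856 CPM in LX-2, 227 and 226 in HMLE Twist_OE and 24.5 and 21.5 in HMLE DMSO (1.91 ± 0.07). MMP14, the membrane protease that activates MMP2, was lower in LX-2 (-2.44 ± 0.08) and was not called raised in HMLE Twist_OE (a rise of 0.64 ± 0.07). MMP9 was the member lowered in HMLE Twist_OE, with 21.1 and 23.7 CPM in LX-2, 0.625 and 0.61 in HMLE Twist_OE and 6.57 and 6.4 in HMLE DMSO. The plasminogen activator PLAT was higher in LX-2 (1.97 ± 0.08), and SERPINE2, an inhibitor of serine proteases, was level (0.02 ± 0.07) with a rise of 2.87 ± 0.08. TIMP3, an inhibitor held in the matrix, was within 2-fold (-0.3 ± 0.07) without a called rise.

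Growth factor genes held all classes, with 8 of 22 within 2-fold, 6 higher and 5 lower in LX-2, and 3 unresolved. TGFB1 differed by -0.12 ± 0.07, with 219.6 and 237 CPM in LX-2, 244 and 254 in HMLE Twist_OE and 101 and 93.1 in HMLE DMSO. TGFB2 (0.39 ± 0.10), the matricellular factor CCN2 (-0.33 ± 0.08) and WNT5A (0.28 ± 0.10) were also raised and within 2-fold, WNT5A with 42.8 and 38.9 CPM in LX-2, 36.3 and 31.2 in HMLE Twist_OE and 0.0913 and 0.0504 in HMLE DMSO. Receptors for TGF-beta parted: TGFBR2 was lower in LX-2 (-2.32 ± 0.08) and TGFBR1 higher, at the limit (1.0 ± 0.10). INHBA, the activin A subunit, had 23.5 and 22.6 CPM in LX-2, 189 and 169 in HMLE Twist_OE and 23.1 and 25.7 in HMLE DMSO. GREM1, a secreted BMP antagonist, rose and stayed below LX-2 (1.95 ± 0.09), with 824 and 773 CPM in LX-2, 213 and 201 in HMLE Twist_OE and 0 and 0.151 in HMLE DMSO. IGFBP5, which binds insulin-like growth factors, had 869.5 and 903 CPM in LX-2, 0.312 and 0 in HMLE Twist_OE and 0.183 and 0.0504 in HMLE DMSO, with no rise called (0.29 ± 0.98).

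Genes of stellate identity had the lowest share of the 9 lists that was raised in HMLE Twist_OE and stood within 2-fold of LX-2 or above it. It was 1 of 14 (7.14%), near the 7.53% of all genes. Of 14 stellate identity genes tested, 4 were raised in HMLE Twist_OE, 8 were higher in LX-2, 1 within 2-fold and 5 lower. GATA4, a transcription factor that restrains fibrosis in mouse stellate cells, had 64.6 and 69.1 CPM in LX-2 and no counts in the 4 HMLE libraries, at least 1007-fold higher than HMLE Twist_OE. LHX2, a LIM homeobox factor of stellate cells, had 18.5 and 20.5 CPM in LX-2 and none in HMLE, and HAND2 had 1.08 and 0.664 CPM in LX-2 and none in HMLE. FOXF1, a target of hedgehog signals in mouse gut and lung mesenchyme, was gained, with 34.1 and 32.1 CPM in LX-2, 10.7 and 13.3 in HMLE Twist_OE and no counts in HMLE DMSO, and was still higher in LX-2 (1.46 ± 0.12). The neurotrophin receptor NGFR fell to the LX-2 level, with 5.75 and 6.33 CPM in LX-2, 5.89 and 6.05 in HMLE Twist_OE and 118 and 117 in HMLE DMSO. PPARG, which quiescent stellate cells carry, had 0.197 and 0.102 CPM in LX-2 against 30.9 and 28.4 in HMLE Twist_OE and 28.2 and 26 in HMLE DMSO. GATA6, a relative of GATA4, was lower in LX-2 (-2.96 ± 0.12) and was the 1 gene of that share. It was already higher in HMLE DMSO, at 13.6 and 13.7 CPM against 5.41 and 5.0 in LX-2, and rose from there. The adhesion molecule ALCAM was lower in LX-2 as well (-1.1 ± 0.08).

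HOX genes encode transcription factors that mark position along the body axis. Of 30 tested, 8 were raised in HMLE Twist_OE (26.7%, against 14.3% of all genes), 1 was lowered (3.33%, against 8.1%) and 21 were not called (70%, against 77.6%). LX-2 was higher for 10 (33.3%, against 19.0% of all genes), lower for 7 (23.3%, against 18.8%) and within 2-fold for 6 (20%, against 46.2%), and 7 were unresolved. Of the 10, 6 had no counts in any HMLE library: HOXD8, HOXD9, HOXD10, HOXD11, HOXB13 and HOXC12. HOXB13 had 16.1 and 18.9 CPM in LX-2 (at least 264-fold) and HOXD10 6.05 and 6.08 (at least 91.4-fold). HOXB2 was raised to the LX-2 level, with 45.5 and 51.5 CPM in LX-2, 53.3 and 54.8 in HMLE Twist_OE and 19.2 and 19 in HMLE DMSO, and HOXB5, HOXB9 and HOXC9 were within 2-fold and raised too. HOXB4 rose by 4.14 ± 0.55 and remained under LX-2 (4.12 ± 0.20), and HOXB3 was higher in LX-2 without a called rise (1.65 ± 0.09). HOXC13 and HOXC8 were lower in LX-2 (-1.62 ± 0.10 and -1.33 ± 0.13).

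Among 26 lineage transcription factors tested, 14 were raised in HMLE Twist_OE (53.8%, against 14.3% of all genes). LX-2 was higher for 13 (50%, against 19.0%), within 2-fold for 5 (19.2%, against 46.2%) and lower for 6 (23.1%, against 18.8%). The orphan receptors NR2F1 and NR2F2 parted in class. NR2F1 was raised and within 2-fold, with 173 and 170.4 CPM in LX-2, 93.7 and 98.4 in HMLE Twist_OE and 9.27 and 9.63 in HMLE DMSO (0.84 ± 0.07). NR2F2 was not called raised, with 456 and 434 CPM in LX-2, 135 and 133 in HMLE Twist_OE and 103 and 95.5 in HMLE DMSO (1.73 ± 0.07). TBX18, a T-box gene of mural cells, rose and was still higher in LX-2 (2.14 ± 0.13), and TBX3 was within 2-fold (-0.6 ± 0.08). The forkhead factor FOXD1 was higher in LX-2 (2.37 ± 0.09). Its change of 1.0 ± 0.10 in HMLE Twist_OE was called at the limit and not kept in 8 of 14 alternatives, with 0.86 without HMLE Twist_OE replicate 2. PITX1 and NFIB were lower in LX-2 (-2.3 ± 0.09 and -1.81 ± 0.12), and neither was called changed in HMLE Twist_OE.

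**Figure D4:**
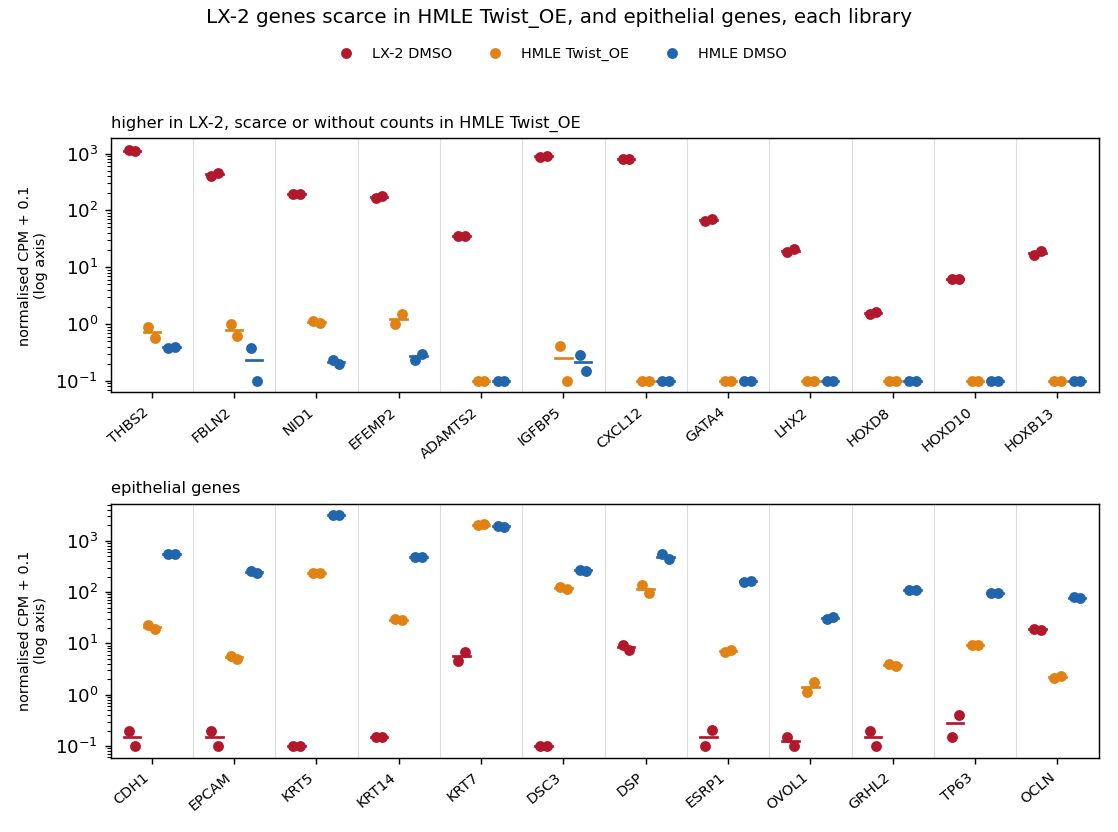
Normalised CPM plus 0.1 (log axis) in each library with the mean of the 2 libraries as a bar, for LX-2 DMSO, HMLE Twist_OE and HMLE DMSO from left to right. Genes of the upper panel are far higher in LX-2 and lie at or near 0 in both HMLE groups, and most epithelial genes of the lower panel stand between LX-2 and HMLE DMSO in HMLE Twist_OE.

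Epithelial genes fell in HMLE Twist_OE but seldom to the level of LX-2. Of 68 tested in 3 lists, 61 were lower in HMLE Twist_OE than in HMLE DMSO (89.7%, against 8.1% of all genes) and 0 higher. LX-2 was lower than HMLE Twist_OE for 56 (82.4%, against 18.8%), within 2-fold for 6 (8.82%, against 46.2%) and higher for 3 (4.41%, against 19.0%). Of the 61 that fell, 50 stayed above LX-2 and 5 were within 2-fold. Of the 1223 that fell among all genes, 475 stayed above LX-2 and 240 were within 2-fold. CDH1, E-cadherin, had 0.0983 and 0 CPM in LX-2, 22.7 and 18.9 in HMLE Twist_OE and 558 and 546 in HMLE DMSO, so 3.77% of the HMLE DMSO level was left. The basal keratin KRT5 had no counts in LX-2, 239 and 238 CPM in HMLE Twist_OE and 3131 and 3160.1 in HMLE DMSO, at least 2846-fold lower in LX-2 than in HMLE Twist_OE. In bulk libraries, fewer cells that carry a gene and less RNA of it per cell cannot be told apart.

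The share left in HMLE Twist_OE differed by gene: it was 2.1% for EPCAM, 6.05% for KRT14, 45.5% for the desmosomal cadherin DSC3 and 65.5% for the plakophilin PKP1, whose fall was not called, with a median of 9.17% over the 68 genes. KRT7 was not called changed (0.1 ± 0.09), with 4.47 and 6.74 CPM in LX-2, 2016 and 2132 in HMLE Twist_OE and 1983 and 1894 in HMLE DMSO. The laminin-332 chain LAMB3 was not called lowered either (-0.29 ± 0.07). F11R and ITGB6 fell to within 2-fold of LX-2 (0.66 ± 0.12 and 0.32 ± 0.13). All 23 epithelial regulators tested fell; the splicing factor ESRP1 had 0 and 0.102 CPM in LX-2, 6.62 and 7.41 in HMLE Twist_OE and 158 and 167 in HMLE DMSO, and TP63, the basal cell factor, 0.0492 and 0.306 CPM in LX-2, 9.22 and 9.24 in HMLE Twist_OE and 95.6 and 95 in HMLE DMSO. GRHL1 and ELF3 fell to within 2-fold of LX-2 (-0.37 ± 0.21 and -0.15 ± 0.36), and KLF5 (-1.87 ± 0.09) and the keratin KRT81 (-2.99 ± 0.07) stayed above it. The tight junction gene OCLN went below the stellate line, with 19.3 and 18.3 CPM in LX-2, 2.03 and 2.2 in HMLE Twist_OE and 79.9 and 75.3 in HMLE DMSO (3.14 ± 0.13). CLDN3 was scarce, with 0.492 and 0.306 CPM in LX-2, no counts in HMLE Twist_OE and 0.867 and 0.605 in HMLE DMSO. KRT8 and KRT18 were present in LX-2 (317 and 377 CPM for KRT18, against 158 and 159.7 in HMLE Twist_OE and 709 and 681 in HMLE DMSO), and both, like KRT6A and KRT6B, have near-identical copies that could share reads, so their counts are uncertain.

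Secreted inflammatory genes were mostly higher in LX-2: 12 of 21 tested (57.1%, against 19.0% of all genes), with 6 lower (28.6%, against 18.8%) and 0 within 2-fold (against 46.2%). CXCL8 had 147 and 149.7 CPM in LX-2, 46.9 and 49.4 in HMLE Twist_OE and 3.19 and 4.64 in HMLE DMSO (1.62 ± 0.09), and the monocyte attractant CCL2 41.4 and 44.2 CPM in LX-2, 10.8 and 11.2 in HMLE Twist_OE and 0 and 0.303 in HMLE DMSO. The long pentraxin PTX3 was lower in LX-2 (-1.43 ± 0.07), with 245 and 269 CPM in LX-2, 709 and 678 in HMLE Twist_OE and 1.23 and 0.958 in HMLE DMSO. CSF1, a growth factor of macrophages, was lower in LX-2 (-1.05 ± 0.09, and -0.92 without LX-2 replicate 1). The interleukin-1 genes fell in HMLE Twist_OE, with log2 changes of -3.16 ± 0.11 for IL1A and -2.96 ± 0.13 for IL1B. ATF4 itself was within 2-fold, with 208 and 231 CPM in LX-2, 301 and 317 in HMLE Twist_OE and 448 and 469 in HMLE DMSO. Of 19 genes tested of the integrated stress response, 9 were lower in LX-2 (47.4%, against 18.8% of all genes). Among them were the amino acid transporter chain SLC3A2 (-2.33 ± 0.08) and, at the limit, the serine enzyme PHGDH (-1.01 ± 0.08). The PHGDH call was not kept in 8 of 15 alternatives, with -0.91 without LX-2 replicate 1. SESN2 and VLDLR were higher in LX-2 (1.09 ± 0.13, or 0.98 without HMLE Twist_OE replicate 2, and 2.89 ± 0.21), and CEBPB was within 2-fold (-0.48 ± 0.08). Of 17 cell cycle genes 14 were within 2-fold (82.4%, against 46.2% of all genes), TOP2A (0.42 ± 0.08) and CCND1 (-0.45 ± 0.07) among them. The inhibitor CDKN1A was lower in LX-2 (-1.91 ± 0.08), with 27.2 and 29.98 CPM in LX-2 and 108 and 107 in HMLE Twist_OE. CDKN2B was lower too (-1.57 ± 0.13), and CDKN1C was higher, with 2.61 and 2.4 CPM in LX-2 and 0.0521 and 0.0469 in HMLE Twist_OE.

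Over all genes, those furthest to the LX-2 side at 10 CPM or more were CXCL12, the tight junction gene CLDN11, the GDNF co-receptor GFRA1, the somatostatin receptor SSTR1, the ubiquitin ligase subunit FBXL7 and the oxidase subunit CYBA. CLDN11 had 329 and 340.0 CPM in LX-2 and GFRA1 190.4 and 171, and none of the 6 had a count in HMLE Twist_OE. Among those on the other side were TERT, KRT5, the protease inhibitor family gene SERPINB5, DSC3 and the gap junction gene GJB2, all without counts in LX-2. TERT, the telomerase gene by which HMLE cells are immortalised, had 1463 and 1394 CPM in HMLE Twist_OE and 609 and 599 in HMLE DMSO, and the files do not separate an introduced copy from the cells' own gene.

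With the ATF4 hairpin, LX-2 was higher than HMLE Twist_OE for 81 of 163 tested, against 61 of 164 with the control hairpin, lower for 38 and within 2-fold for 37. Over all genes with shATF4, LX-2 was higher for 22.1%, lower for 21.2% and within 2-fold for 43.2%. Mesenchymal genes raised in HMLE Twist_OE that stood within 2-fold of LX-2 or above it numbered 31 with shATF4, 29 of them also among the 68 with shCtrl. Over all genes the same counts were 431 with shATF4 and 1137 with shCtrl, 275 of them shared. Of the 159 mesenchymal genes tested with both hairpins, 114 had the same class and 4 were called in opposite directions. Of all genes tested with both, 10496 of 14747 (71.2%) had the same class and 69 were called in opposite directions. ATF4 had 122 and 109 CPM in LX-2 shATF4, 158 and 163 in HMLE shATF4 Twist_OE and 133 and 126 in HMLE shATF4 DMSO.

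In these libraries TWIST1 had 16.4 and 11.9 CPM in LX-2 shATF4, 31.4 and 32.1 in HMLE shATF4 Twist_OE and 15.2 and 10.5 in HMLE shATF4 DMSO, a log2 rise of 1.3 where it was 2.96 ± 0.09 with shCtrl, and the difference of these rises was not tested. VIM had 1946 and 1916 CPM in LX-2 shATF4, 134 and 158 in HMLE shATF4 Twist_OE and 5.22 and 5.5 in HMLE shATF4 DMSO, and COL1A1 2359 and 2323 CPM in LX-2 shATF4, 149 and 167 in HMLE shATF4 Twist_OE and 10.3 and 8.66 in HMLE shATF4 DMSO. Of the 110 genes raised with shCtrl, 108 were tested with shATF4 and 77 of these were raised there too, with a median log2 rise of 1.91 with shATF4 and 2.97 with shCtrl over the 108. Over all genes, HMLE shATF4 Twist_OE was higher than HMLE shATF4 DMSO for 6.85% and lower for 0.864%.

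Of the epithelial genes, few were called lowered with shATF4: of the 61 lowered with shCtrl, 60 were tested and 3 were lowered. Over all genes few were lowered too, 131 (0.864%) with shATF4 against 1223 (8.1%) with shCtrl. How many of all genes lowered with shCtrl were also lowered with shATF4 was not counted. CDH1 had 0 and 0.149 CPM in LX-2 shATF4, 562 and 518 in HMLE shATF4 Twist_OE and 604 and 557 in HMLE shATF4 DMSO, and KRT5 no counts in LX-2 shATF4, 2736 and 2694 CPM in HMLE shATF4 Twist_OE and 2307 and 2271 in HMLE shATF4 DMSO. All 67 epithelial genes tested were lower in LX-2 shATF4 than in HMLE shATF4 Twist_OE. The difference between hairpins was tested as an interaction over the 8 libraries, an analysis added after the data were seen, and was called for 13.7% of all genes. It was -2.92 for VIM (adjusted p = 4.4e-10), -1.7 for CDH2 (adjusted p = 5.4e-08) and -1.95 for COL1A1 (adjusted p = 4.1e-09), each meaning that LX-2 stood further above HMLE Twist_OE with shATF4. ACTA2 (-0.27, adjusted p = 0.24) was not called. The interaction for TWIST1 itself was -1.855 (adjusted p = 3.0e-06), with LX-2 less far below HMLE Twist_OE with shATF4. The part of the TWIST1 level in these differences was not tested, since hairpin and TWIST1 level moved together.

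**Figure D5:**
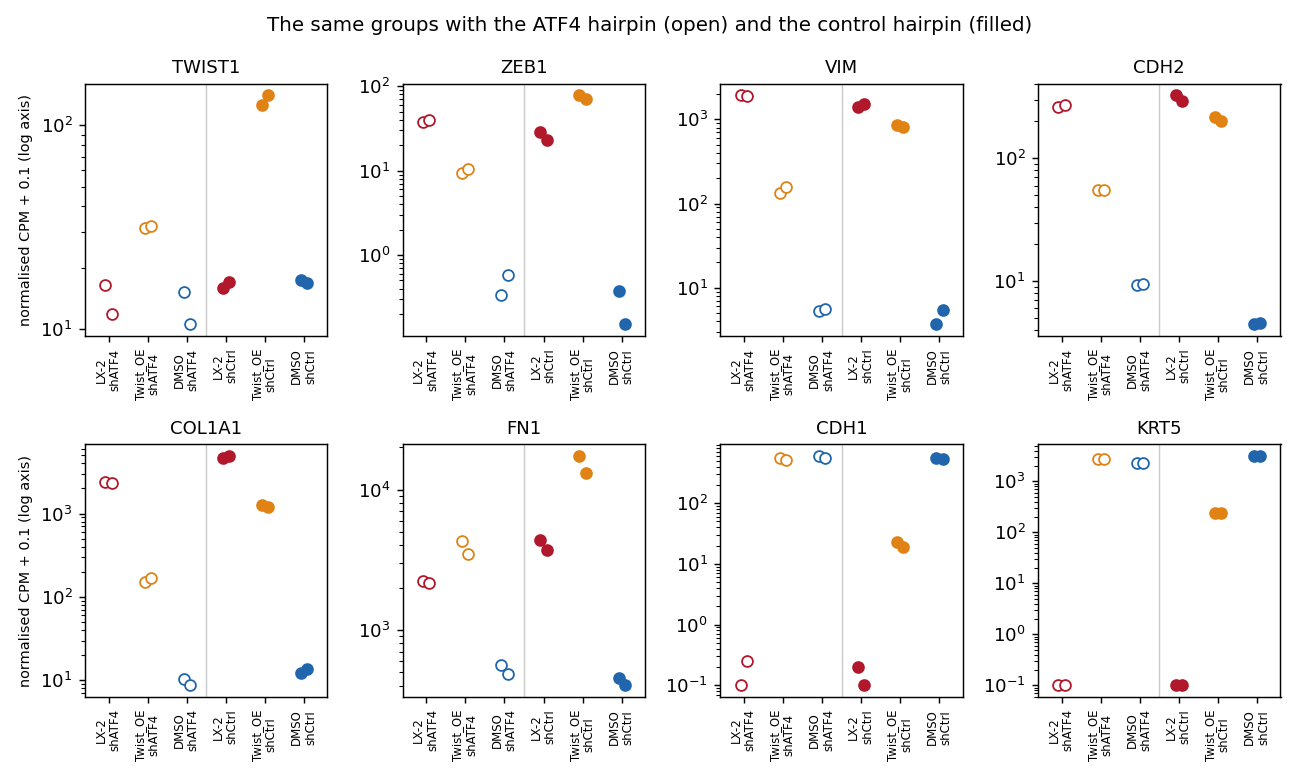
Normalised CPM plus 0.1 (log axis) of 8 genes in each library of LX-2 DMSO, HMLE Twist_OE and HMLE DMSO, with the ATF4 hairpin (open) on the left and the control hairpin (filled) on the right of each panel. With shATF4, HMLE Twist_OE holds less TWIST1, ZEB1, VIM, CDH2, COL1A1 and FN1 than with shCtrl, while CDH1 and KRT5 stay at the level of HMLE DMSO.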

How the data were processed

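RNA-seq libraries were made from total RNA with a SMARTer mRNA kit, per the labels' protocols. The authors deposited raw counts per gene, 58735 genes in each library. The submitters' processing notes name cutadapt, Bowtie2, STAR, HOMER, featureCounts and DESeq and the builds hg19 and hg38, with no version and no role for each; which served RNA-seq, and whether strand was used, is not given in the sources used here. The series holds 32 RNA-seq libraries, 31 of them distinct, since 2 files hold identical counts.

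Counts of the 6 shCtrl libraries were fitted together in edgeR 4.0.16 (R 4.3.3, limma 3.58.1) with TMM scaling, filterByExpr, the quasi-likelihood test and Benjamini-Hochberg adjustment over all genes tested. Standard errors were taken as the log2 difference over the square root of F. Of 16852 genes tested, 15093 with a known chromosome other than X or Y are counted; genes of unknown chromosome stayed in the fit. DESeq2 1.42.0 was an alternative. Totals of 18495277 to 22662452 counts set the precision; intervals come from the fit's spread between libraries, and floors of 3 counts cover counting error only. Counts of 16852 genes were simulated for LX-2 DMSO against HMLE Twist_OE, with 200 genes changed. Of genes changed by 2 on the log2 scale 89% were called, and of those changed by 1.5 82%. Of unchanged genes 0.03% were called. Between the real groups 2864 genes were called higher and 2835 lower, so these rates may not hold for the data.

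Gene lists and members were chosen with earlier results of these data known. Named by rule were TWIST1, CDH1, CDH2, VIM, FN1, ZEB1, ACTA2, COL1A1 and ATF4, up to 2 genes of highest mean CPM per list and class, and the 6 largest differences on each side at 10 CPM or more; other members are examples chosen after their values were seen. A few named genes are not reported here. The replicate block is an alternative only.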

Additional observations from a re-analysis of the deposited data

Results flagged for a closer look

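The difference between LX-2 and HMLE Twist_OE was called in opposite directions with the ATF4 hairpin and the control hairpin for 4 of the 105 named genes reported here, and the test of the difference between hairpins, run after the data were seen, was called for all 4. Of 104 of these genes with such a test 45 were called (13.7% of all 15378 genes tested). The interaction is the difference with shCtrl minus that with shATF4, so a value below 0 means that LX-2 stood higher relative to HMLE Twist_OE with shATF4 than with shCtrl.

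The EMT repressor ZEB1 had 37.7 and 39.4 CPM in LX-2 shATF4, 9.35 and 10.3 in HMLE shATF4 Twist_OE and 0.24 and 0.478 in HMLE shATF4 DMSO, and 28.6 and 22.9 CPM in LX-2, 78.4 and 70.2 in HMLE Twist_OE and 0.274 and 0.0504 in HMLE DMSO with shCtrl, an interaction of -3.50 (adjusted p = 7.6e-09). PTX3 had 547 and 559 CPM in LX-2 shATF4, 69.8 and 75.8 in HMLE shATF4 Twist_OE and 0.863 and 1.1 in HMLE shATF4 DMSO, and 245 and 269 CPM in LX-2, 709 and 678 in HMLE Twist_OE and 1.23 and 0.958 in HMLE DMSO with shCtrl, an interaction of -4.36 (adjusted p = 1.4e-11). For both genes LX-2 was higher with shATF4 and lower with shCtrl.

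The tight junction gene OCLN had 27.7 and 27.9 CPM in LX-2 shATF4, 84.5 and 84.5 in HMLE shATF4 Twist_OE and 107 and 117 in HMLE shATF4 DMSO, and 19.3 and 18.3 CPM in LX-2, 2.03 and 2.2 in HMLE Twist_OE and 79.9 and 75.3 in HMLE DMSO with shCtrl, an interaction of 4.74 (adjusted p = 3.7e-10). KRT18 had 145 and 143 CPM in LX-2 shATF4, 707 and 688 in HMLE shATF4 Twist_OE and 1036 and 989 in HMLE shATF4 DMSO, and 317 and 377 CPM in LX-2, 158 and 159.7 in HMLE Twist_OE and 709 and 681 in HMLE DMSO with shCtrl, an interaction of 3.40 (adjusted p = 2.9e-10), and its counts are uncertain because of near-identical copies. Both genes were lower in LX-2 with shATF4 and higher with shCtrl. TWIST1 in HMLE Twist_OE stood at 31.4 and 32.1 CPM with shATF4 and 126 and 140.2 with shCtrl, and the part of this in these differences was not tested.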

How the results depend on the processing

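No direction turned under any alternative run. Of 44 mesenchymal genes within 2-fold, 27 were so with all 31 distinct libraries in the fit, and 21 with the interval held to 1.5-fold; without the LX-2 Tg replicate 2 in that larger fit, 42 of the 44 kept their class. With shCtrl, the totals over all genes and the pooled mesenchymal counts by class, raised to the LX-2 level or above, and with LX-2 above both stayed within 1.5 times under DESeq2, size-factor scaling, no filter on low counts, a test against 2-fold itself, X and Y genes removed first, and each library left out. With shATF4, the totals over all genes did so under DESeq2, size-factor scaling, no filter and each library left out. Epithelial counts, counts of single lists, counts shared between hairpins and the interaction were not rerun. With only the 4 compared libraries no value against HMLE DMSO exists. Of 164 mesenchymal genes, 117 kept their class in every setting and 0 took the opposite one.

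Leaving out 1 library at a time gave 56 to 65 mesenchymal genes higher in LX-2, 40 to 43 within 2-fold and 44 to 48 lower. It gave 63 to 70 that were raised and stood within 2-fold of LX-2 or above it, and 55 to 61 with LX-2 above both. Over all genes the ranges were 2688 to 3069 higher and 2722 to 2868 lower in LX-2 than HMLE Twist_OE. They were 1916 to 2146 higher and 1192 to 1261 lower in HMLE Twist_OE than HMLE DMSO, and 3753 to 4042 higher and 3261 to 3426 lower in LX-2 than HMLE DMSO. With shATF4 they were 3186 to 3476 higher and 3161 to 3253 lower.

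With the replicate block, 60 mesenchymal genes were higher, 45 within 2-fold and 46 lower, and 67 were raised and stood within 2-fold of LX-2 or above it. Of all genes, 2830 were higher and 2820 lower in LX-2. Same-numbered libraries correlated at 0.118, 0.053 and 0.131 in their deviations. Weak positive values over all genes cannot exclude a shared batch, and the labels give only a replicate number.

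Of 216 calls on named genes, 21 changed under some alternative, 6 of them in 7 or more: COL4A1, VCL and PHGDH between the lines, and THBS2, FOXD1 and ITGAV between the HMLE groups. All 6 lie near 2-fold or, for THBS2, near the p threshold. Without LX-2 replicate 1, ZEB2 was at 0.88 and CSF1 at -0.92, and without LX-2 replicate 2 KRT18 was at 0.98. The cause of these changes was not tested.

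Group sizes of 2, below 1 CPM in particular, limit what an interval can resolve, and a class of unresolved is not evidence of equal levels. The transgene, vector and vehicle of HMLE Twist_OE are not given, and the line, the tissue of origin and Twist itself cannot be told apart in LX-2 against HMLE Twist_OE.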
